A study of Mus musculus with 4 samples.

Results

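The transcripts of 10 genes of the microtubule cytoskeleton of young neurons were followed in E14.5 cochlear ducts of the mouse: the stathmins *Stmn1*, *Stmn2*, *Stmn3* and *Stmn4*, the tubulin gene *Tubb3*, and *Mapt*, *Map2*, *Map1b*, *Dcx* and *Dclk1*, which encode proteins that bind microtubules. They were selected on the measured ratio of mutant over control on these same arrays, because *Stmn3* and *Stmn4* had ratios among the lowest of all. The genotype values below are therefore a description, and no single p value of genotype is given for these genes. Where they are said to pass a threshold of the fit, this follows from the selection and is no test of them. All gene probes that carry one of the 10 symbols were taken. These were 22 probes, of which 18 passed the filter on dim probes, out of 39429 probes and 29924 gene names on the array. Each of the 10 genes had at least 1 probe that passed.

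On each of 4 arrays a pool of *Sox2-Tbx2LOF* ducts was compared with a pool of control ducts. The labels give the mutants as Sox2(creERT2);Tbx2(fl/fl) and the controls as Tbx2(fl/n.d.), with the second *Tbx2* allele not determined, and the methods call the controls cre-negative. All embryos were of the NMRI strain, and their dams had received 4 mg of tamoxifen at E12.5. The Cre recombinase is driven from *Sox2*, thus in prosensory and other *Sox2*-expressing cells, and is inserted in that gene, so the loss of *Tbx2* and the presence of the insertion cannot be told apart in this comparison. According to the methods, the matings also brought in a fluorescent Cre reporter (R26 mTmG), and the spiral ganglion was taken off before RNA was made from pooled ducts. Arrays 1 and 2 held female and arrays 3 and 4 male pools. Mutant RNA carried the dye Cy5 on arrays 1 and 3 and Cy3 on arrays 2 and 4, the control RNA the other dye. Of 12 markers of the cochlear duct epithelium, among them *Epcam*, *Pax2* and *Gata3*, all 12 were well above background in all 8 pools. The median brightness of a spot ranged from 263 to 292 for Cy3 and from 496 to 563 for Cy5, and saturated spots numbered 0.

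Microtubules are hollow fibres of alpha and beta tubulin that grow and shrink at their ends. Stathmins bind free tubulin and promote shrinkage: STMN1 is a cytosolic protein of many dividing cells, whereas STMN2 (SCG10), STMN3 (SCLIP) and STMN4 (RB3) are anchored to membranes and are best known from neurons and their growing neurites. Tau (*Mapt*), MAP2 and MAP1B decorate and stabilise the fibre, tau chiefly in axons and MAP2 chiefly in dendrites. Doublecortin (*Dcx*) and the doublecortin-like kinase DCLK1 bind it in migrating and extending neurons, and *Tubb3* encodes the beta tubulin isotype by which neurons are commonly marked. In the ear, such transcripts are known from the neurons that innervate the cochlear duct, although some are also found in developing epithelial cells.

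A single probe read *Stmn3* and a pair of overlapping probes read *Stmn4*. The first 30 bases of the *Stmn3* probe (mm9, minus strand, chr2:181041426-181041455) and 30 bases that both *Stmn4* probes contain (mm9, plus strand, chr14:66980442-66980471) are shown, since the lowest ratios rest on them.
Stmn3: cagcggcgacaagaacgttttcgggttttg
Stmn4: cgggtgggataaggtctgtgtgcgtctgtt
The whole probes were 60 bases long. The *Stmn4* probes shared 44 bases and so are not separate readings of the gene. The *Stmn3* probe and the *Stmn4* probe that stood for its gene had no run of more than 5 bases in common on either strand. No probe of any other gene on the array shared 20 bases with either of them (0 and 0 probes).

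*Stmn3* was lower in the mutant pool on each array. Its normalized log2 intensity was 9.90, 8.36, 9.74 and 8.92 in the control pools of arrays 1 to 4, and 7.55, 7.07, 8.18 and 7.12 in the mutant pools. No mutant pool reached the lowest control pool, although array 3 came within 0.19 of it. The log2 ratios of mutant over control were −2.35, −1.29, −1.57 and −1.79, with a mean of −1.75 ± 0.45 (SD, n = 4), which is 29.7% of the control level or 3.36-fold lower. Before normalization, the mean intensity above local background was 704, 312, 595 and 505 in the control pools and 168, 36, 295 and 53 in the mutant pools. The probe (chr2:181041396-181041455) was nevertheless well above background in all 8 pools.

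*Stmn4* followed the same course. The control pools of arrays 1 to 4 had log2 intensities of 10.99, 9.70, 10.76 and 9.89, and the mutant pools 8.79, 8.13, 9.28 and 8.15 (chr14:66980442-66980501). Here too the mutant pools lay below all control pools. The log2 ratios were −2.19, −1.57, −1.47 and −1.74, with a mean of −1.74 ± 0.32 (SD, n = 4), or 3.35-fold lower. The overlapping probe gave −1.65 ± 0.32 (SD, n = 4). Among the 21042 genes tested, *Stmn3* had the lowest and *Stmn4* the next lowest mean ratio, which is the pattern they were selected for. These ranks depended on the signal used, and were 3 and 7 with Agilent's processed signals and 1 and 4 with the authors' series values.

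**Figure D1:**
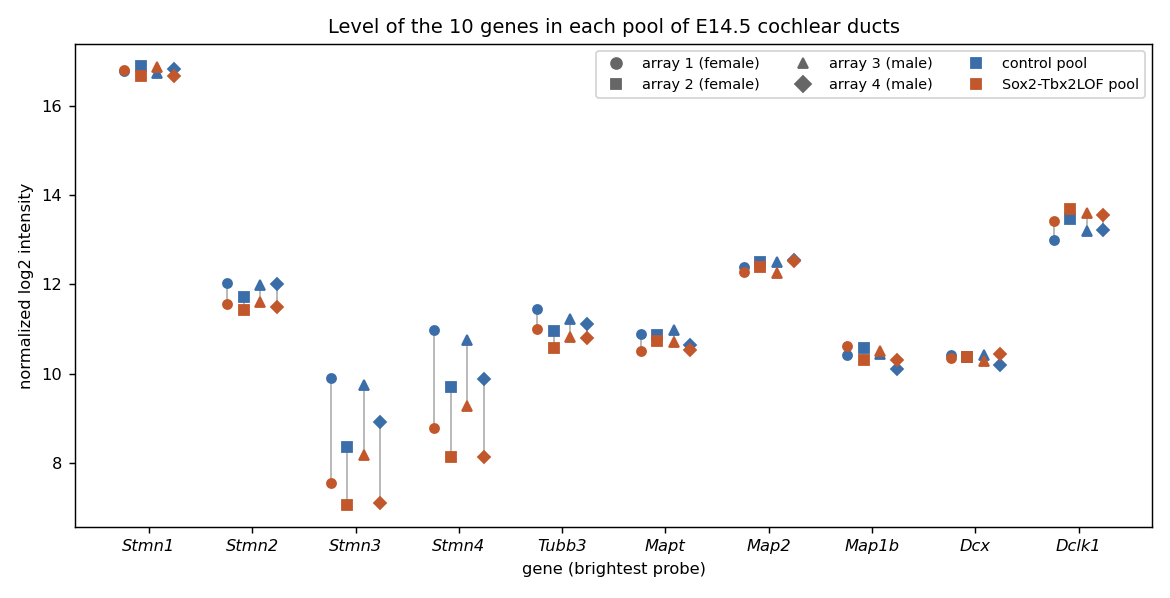
Normalized log2 intensity (vertical axis) of the brightest probe of each of the 10 genes in the 4 control (blue) and 4 Sox2-Tbx2LOF pools (orange); a grey line joins the pools of one array, and the marker shape gives the array. The mutant pools of Stmn3, between 7.07 and 8.18, lay below all its control pools, between 8.36 and 9.90, while the pools of Map1b and Dcx overlapped; heights of different probes are not comparable.

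*Stmn2* was also lower, by a smaller amount. Its log2 intensity was 12.03, 11.73, 11.98 and 12.01 in the control pools and 11.57, 11.43, 11.60 and 11.51 in the mutant pools (chr3:8561545-8561604). The groups did not overlap, and the ratios of −0.46, −0.30, −0.38 and −0.51 were close to each other, with a mean of −0.41 ± 0.090 (SD, n = 4), which is 75.2% of control. The cytosolic *Stmn1* changed less than the neuronal stathmins. Its brightest probe (chr4:134029355-134029414) had ratios of 0.032, −0.24, 0.13 and −0.17, 2 of them below 0, and a mean of −0.060 ± 0.17 (SD, n = 4). A further *Stmn1* probe (chr4:134029695-134029754) was below 0 on 4 of 4 arrays with a mean of −0.18 ± 0.15, but its control and mutant pools overlapped. When all tested probes were fitted, this further probe passed an adjusted p of 0.05 from limma and the brightest did not. On both *Stmn1* probes the ratios of arrays 1 and 3, with the mutant in Cy5, were higher than those of arrays 2 and 4.

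*Tubb3* had log2 intensities of 11.46, 10.96, 11.22 and 11.12 in the control pools and 11.00, 10.58, 10.81 and 10.81 in the mutant pools (chr8:125945850-125945909). Its mutant pool was lower on each array, although the highest mutant pool exceeded the lowest control pool, which came from another array. The ratios of −0.46, −0.38, −0.40 and −0.31 averaged −0.39 ± 0.063 (SD, n = 4), or 76.5% of control. This was the smallest spread among the brightest probes of the 10 genes.

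The genes of the structural microtubule-associated proteins moved less. *Mapt* was read by 3 probes on chromosome 11, with mean log2 ratios of −0.22 ± 0.13 (chr11:104189496-104189555), −0.19 ± 0.22 (chr11:104189430-104189489) and −0.35 ± 0.31 (chr11:104193241-104193300; SD, n = 4 each). The first and the last were below 0 on 4 of 4 arrays and the other on 3 of 4. On the last probe the mutant pools, between 9.73 and 9.81, were below the control pools, between 9.82 and 10.46, by as little as 0.010, and arrays 1 and 3 had ratios of −0.69 and −0.53 against −0.022 and −0.18 on arrays 2 and 4. On that probe the ratios thus differed between arrays by more than their mean.

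For *Map2*, the brighter probe (chr1:66488783-66488842) had a mean ratio of −0.13 ± 0.10 (SD, n = 4), below 0 on 4 of 4 arrays, and its pools overlapped. A neighbouring probe (chr1:66488543-66488602) had ratios of 0.13, −0.23, 0.35 and −0.29, which did not go one way. The remaining *Map2* probe was not well above background in any pool. For *Map1b*, the brighter probe (chr13:100192506-100192565) had ratios of 0.21, −0.26, 0.071 and 0.19 and a mean of 0.054 ± 0.22 (SD, n = 4), and a dimmer one (chr13:100194409-100194468) had −0.10 ± 0.048, below 0 on 4 of 4 arrays. The probes of *Map2* and of *Map1b* therefore disagreed among themselves in direction on some arrays.

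*Dcx* and *Dclk1* were not lower in the mutant. *Dcx* had log2 intensities of 10.42, 10.37, 10.43 and 10.20 in the control pools and 10.35, 10.38, 10.28 and 10.44 in the mutant pools (chrX:140290854-140290913). The pools were interleaved, and the mean ratio was 0.0066 ± 0.17 (SD, n = 4). The 2 other *Dcx* probes were not well above background in any pool.

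For *Dclk1*, each of the 3 probes that could be read had a ratio above 0 on all 4 arrays. The brightest (chr3:55273441-55273500) had log2 intensities of 12.99, 13.47, 13.19 and 13.22 in the control pools and 13.41, 13.68, 13.60 and 13.55 in the mutant pools. The pools of the groups overlapped slightly, because control pool 2 was above mutant pool 1. Its ratio averaged 0.34 ± 0.096 (SD, n = 4), or 1.27-fold higher, and the other probes gave 0.35 ± 0.21 (chr3:55266925-55266984) and 0.32 ± 0.20 (chr3:55340456-55340515). On the last of these all mutant pools, between 10.86 and 11.07, were above all control pools, between 10.49 and 10.77. The remaining *Dclk1* probe was not well above background in any pool.

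**Figure D2:**
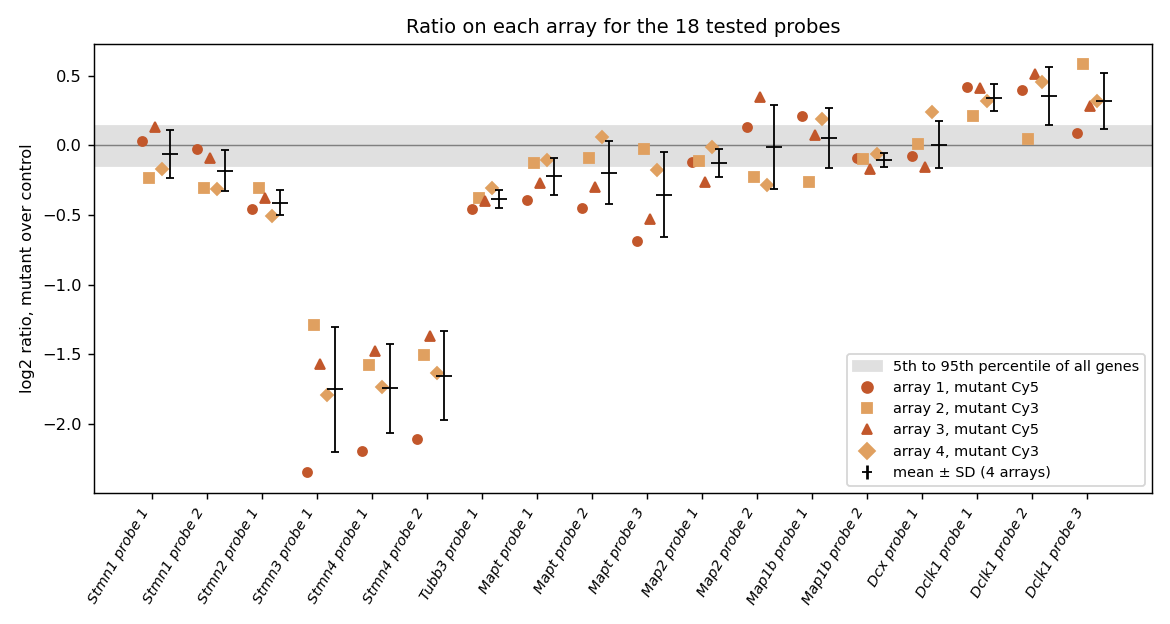
Log2 ratio of mutant over control (vertical axis) on each of the 4 arrays for the 18 probes that passed the filter, with mean and SD in black; darker points have the mutant in Cy5 and lighter points in Cy3, and the grey band spans the 5th to the 95th percentile of the mean ratios of all genes tested, from −0.15 to 0.14. The Stmn3 and Stmn4 probes lay between −2.35 and −1.29 and the 3 Dclk1 probes above 0. Stmn1, Map2, Map1b, Dcx and the second Mapt probe had points on both sides of 0.

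Counted by the fit over all genes, 2 of the 10 genes, *Stmn3* and *Stmn4*, were called lower (adjusted p below 0.05 from limma and at least 1.5-fold), where 0.309% of all 21042 genes were. An adjusted p below 0.05 without a minimum fold was reached in the lower direction by 5 genes (*Stmn2*, *Stmn3*, *Stmn4*, *Mapt* and *Tubb3*), against 2.92% of all genes, and in the higher direction by 1 (*Dclk1*), against 2.26%. These shares rest on 615 and 476 genes, which became 289 and 122 without array 1 and 231 and 214 without array 3. The ratio was below 0 on all 4 arrays for 6 of the 10, the same 5 and *Map2*, against 9.31% of all genes. The mutant pools all lay below the control pools for 3 of the 10, *Stmn2*, *Stmn3* and *Stmn4*, against 2.59%. The median ratio of the 10 genes was −0.17 and that of all genes 0.0024. These counts follow from the selection. When the pairing of pools on an array was ignored and the channels were fitted separately, 0 of the 10 genes passed 0.05 by limma's adjusted p, at the same mean ratios. Ratios for *Stmn3* depended on the signal used: Agilent's processed signals gave −2.58 and the authors' series value table −2.60.

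The levels of *Stmn3* and *Stmn4* also differed between arrays. In both the control and the mutant pools, arrays 1 and 3 read higher than arrays 2 and 4. Averaged over both genotypes, the difference between these pairs of arrays was 0.97 on the log2 scale for *Stmn3* and 0.99 for *Stmn4*, the third highest and the next to highest value of 21042 genes, whose 5th and 95th percentiles were −0.15 and 0.16. It was 0.26 for *Tubb3*, 0.13 for *Stmn2*, 0.073 for the brightest *Mapt* probe and −0.18 for *Dclk1*.

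Because the pairs of arrays also differ in dye direction, this bears on readings within a dye. Among the Cy3 pools, the mutant was lower than the control by a log2 difference of −2.72 for *Stmn3* and −2.73 for *Stmn4*. Among the Cy5 pools the difference was −0.78 and −0.76. For *Tubb3* the corresponding values were −0.64 and −0.13, for *Stmn2* −0.54 and −0.28, and for *Dclk1* 0.52 and 0.16. The direction was thus the same within either dye for these 5 genes, and only its size differed. With 2 pools of a genotype in each dye no test was made. Each array held both dyes, so a constant shift between dyes cancels in the averages over both genotypes given above. A difference between the pools of these arrays and a genotype difference that depends on the dye cannot be told apart. The ratios within an array, which compare pools in different dyes, differed less by dye direction. With mutant Cy5 and with mutant Cy3 they averaged −1.96 and −1.54 for *Stmn3*, −1.83 and −1.65 for *Stmn4*, −0.43 and −0.34 for *Tubb3*, and 0.42 and 0.27 for *Dclk1*.

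**Figure D3:**
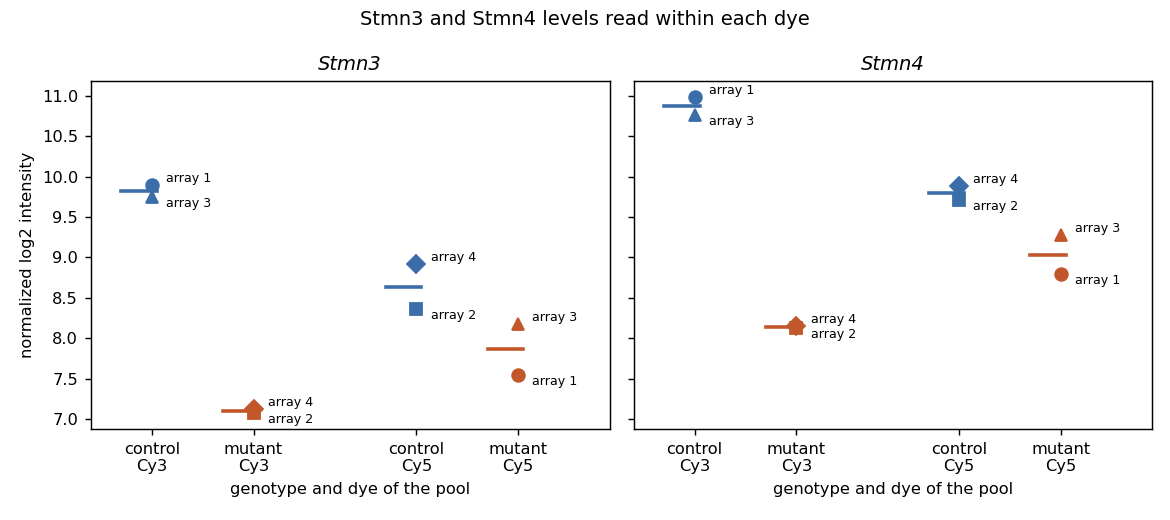
Normalized log2 intensity (vertical axis) of the Stmn3 (left) and Stmn4 (right) probes by genotype and dye, 2 pools each, with the array beside each point and a bar at the mean. Mutant minus control was −2.72 for Stmn3 among Cy3 pools and −0.78 among Cy5 pools, and arrays 1 and 3 were the higher ones in both genotypes.

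Sex was not used in selecting the genes and was tested. The log2 ratio of *Stmn4* was −1.88 in female and −1.60 in male pools, a difference of −0.28 with a limma SE of 0.17. That of *Stmn3* was −1.82 and −1.68, and that of *Dclk1* 0.32 and 0.37. The interaction of genotype and sex reached an adjusted p of 1 from limma for each of the 10 genes (lowest unadjusted 0.128, *Stmn4*). Across all genes 0 passed (0% of 21042), and 558 (2.65%) had an unadjusted p below 0.05 from limma. The interaction fit left 1 residual degree of freedom, so a sex difference of the ratio could have gone undetected. The level averaged over genotypes was likewise not shown to differ between the sexes for any of the 10 (adjusted p = 1 from limma), where 0.0618% of all genes passed. The *Stmn3* difference, −0.27 for female minus male, had an SE of 0.40, so differences of that size were not resolved with 2 arrays of each sex.

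Other parts of the microtubule system, in lists drawn up with earlier results of these data known, changed little. Among all genes, 2.92% were lower and 2.26% higher at an adjusted p below 0.05 from limma. Of 18 other tubulin genes tested, 1 passed an adjusted p of 0.05, *Tuba1c*, lower by −0.21 and so on 3 of 4 arrays only. The median ratio of these tubulins was −0.029. Of 28 further microtubule-associated and end-binding proteins, 2 passed. Both were doublecortin-like kinases that went down, *Dclk2* at −0.17 ± 0.053 and *Dclk3* at −0.28 ± 0.091 (SD, n = 4), whereas *Dclk1* went up. This count of 2 became 0 without array 1, without array 3 and without the dye term. Of 20 genes in the list of kinases that act on tau, doublecortin or stathmins, their activators included, 1 passed, *Camk2b*, a subunit of the calcium-dependent kinase CaMKII, at −0.40 ± 0.093. Of 21 motor proteins and adaptors of axonal transport, 2 passed, the neuronal kinesin heavy chain *Kif5a* at −0.27 ± 0.13 and the dynein regulator *Nde1* at −0.15 ± 0.17. Of 11 proteins that sever or depolymerise microtubules, 1 passed, *Fignl1* at −0.16 ± 0.085. Of 23 tubulin folding cofactors and modifying enzymes, 0 passed. No gene of these lists had a fold change of 1.5 or more.

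Some markers of neurons were lower, as *Stmn3* and *Stmn4* were, and others were not. The list was drawn up with earlier results of these data known, so its counts are a description. Of 27 neuronal markers other than the 10 genes, 23 were tested, with a median ratio of −0.19. At an adjusted p below 0.05 from limma, 11 were lower and 3 higher, against 2.92% and 2.26% of all genes. Called lower were 5, against 0.309% of all genes. *Neurog1*, *Neurod1*, *Nhlh2* and *Scg2* did not pass the filter on dim probes. The genes called lower were *Elavl3*, an RNA-binding protein of neurons (−1.08 ± 0.36), *Sncg* (−0.83 ± 0.15), the sensory neuron transcription factor *Pou4f1* (−0.75 ± 0.13) and the neurofilament genes *Nefm* (−0.72 ± 0.21) and *Ina* (−0.71 ± 0.25; SD, n = 4 each). Higher were *Syt1* (0.24), *Isl1* (0.20) and *Ntrk3* (0.16), a count of 3 that became 0 without array 1, without array 3 and without the dye term, while *Snap25* (−0.026) and *Uchl1* (0.018) were near 0. The summed linear signal of the list, which its brightest genes dominate, lay between 88510 and 93127 in the control pools and between 89946 and 94289 in the mutant pools. In these whole-duct pools, fewer cells of a type and less RNA per cell cannot be told apart, and the part of neurons in the values of the 10 genes was not tested.

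Some of these markers also shared the difference between arrays. The log2 intensity of *Elavl3* was 9.05, 8.08, 8.98 and 8.08 in the control pools and 7.49, 7.32, 7.81 and 7.24 in the mutant pools. Arrays 1 and 3 were again the higher ones. Averaged over genotypes their lead over arrays 2 and 4 was 0.65 for *Elavl3*, 0.67 for *Sncg*, 0.41 for *Ina* and 0.33 for *Nefm*. Over the 23 markers its median was 0.072, and 8 exceeded the 95th percentile of all genes.

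Markers of other cells were measured beside them, in lists also drawn up with earlier results of these data known. Among all genes, 0.309% were called lower. At an adjusted p below 0.05 from limma, 2.92% were lower and 2.26% higher. Of 12 markers of Schwann cell precursors and glia, 5 were called lower: *Foxd3* (−1.18 ± 0.22), *Fabp7* (−1.03 ± 0.14), *Ngfr* (−0.74 ± 0.086), *Cdh19* (−0.63 ± 0.19) and *Ednrb* (−0.59 ± 0.098; SD, n = 4 each). *Sox10*, of the same list, had a ratio of 0.0099. Which cells of the duct gave the signals of this list was not tested. *Fabp7* and *Ngfr* are also known from cochlear supporting cells. The summed signal of the list lay between 195731 and 226497 in the control and between 189160 and 219368 in the mutant pools. Of 11 prosensory markers, *Fgf20* (−0.54), *Lfng* (−0.52) and *Jag1* (−0.19) were lower and *Hey2* (0.36) and *Isl1* (0.20) higher. Of 11 hair cell markers *Myo7a* alone passed (0.17 ± 0.043). It did not pass under 9 of 14 other ways of processing, those without array 1, 3 or 4 among them. In the cochlear epithelium list *Tectb* (0.68), *Emx2* (0.35) and *Gata3* (0.34) were higher and none of the other genes passed, and *Col1a1* (0.27) was the 1 of 10 mesenchymal markers that did. Blood and melanocyte markers gave 0 of 8 and 0 of 7.

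**Figure D4:**
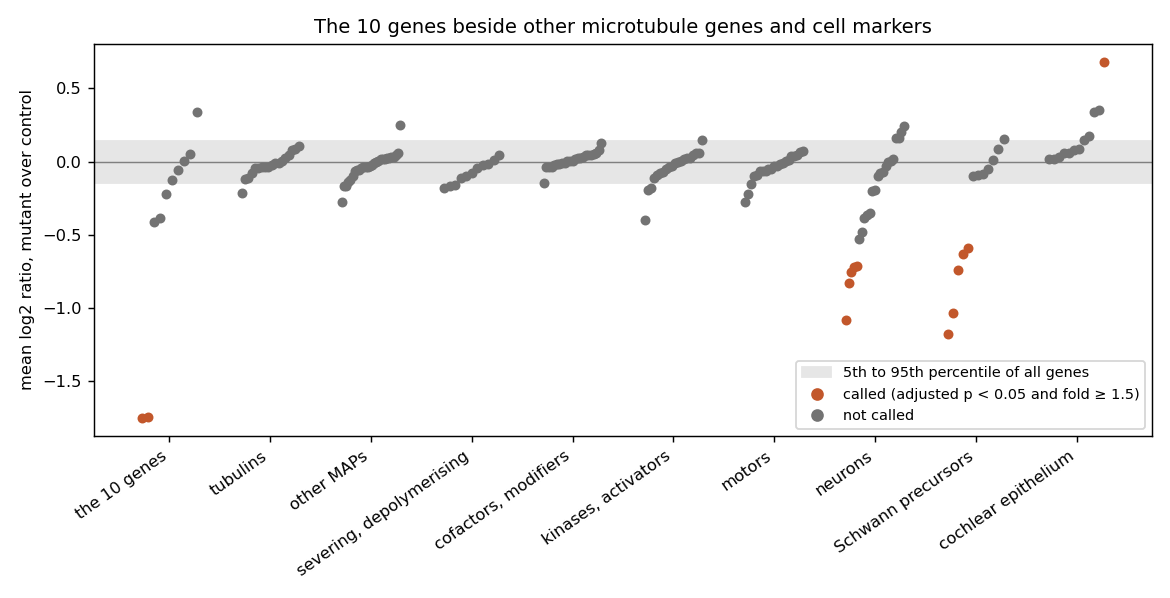
Mean log2 ratio of mutant over control (vertical axis) of each tested gene in the 10 genes, 6 other microtubule lists and 3 lists of cell markers, ordered by value within a list; orange points were called and the grey band spans the 5th to the 95th percentile of all genes. Called genes, 2 among the 10 and 5 each among neurons and Schwann precursors, were lower, 1 in the epithelium list was higher, and the other microtubule lists held none.

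By the distance between their 4 ratios, the gene most like *Stmn3* was *Stmn4*, at a Euclidean distance of 0.34 on the log2 scale over 4 arrays. The next were much farther, namely *Pvalb* (1.20), *Celf3* (1.22), *Foxd3* (1.39) and *Prss35* (1.40). For *Stmn4* the same genes followed after *Stmn3*, from *Pvalb* (1.15) to *Foxd3* (1.34). *Pvalb* encodes the calcium buffer parvalbumin and *Celf3* an RNA-binding protein. This order is a description, as genes with large ratios are few and lie close to each other by size alone. The control pools of *Celf3* were higher on arrays 1 and 3, with log2 intensities of 9.02, 7.83, 8.71 and 7.90. Its mutant pools had 7.08, 7.13, 7.57 and 6.99, with array 1 below array 2.

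TBX2 is a T-box transcription factor, and the windows around the annotated starts of the 10 genes were searched for T-box and neuronal motifs. RefSeq windows (GRCm38.p6, 250 bases before to 50 after a start) were at hand for 6 of the genes, with 8 windows in all. The upstream 250 bases are shown for a gene that fell strongly, one that fell mildly and the one that rose, with matches to the motifs in capitals. They come from *Stmn3* (minus strand, chr2:181314501-181314750), *Tubb3* (plus strand, chr8:123411303-123411552) and the second *Dclk1* start (plus strand, chr3:55461478-55461727).
Stmn3: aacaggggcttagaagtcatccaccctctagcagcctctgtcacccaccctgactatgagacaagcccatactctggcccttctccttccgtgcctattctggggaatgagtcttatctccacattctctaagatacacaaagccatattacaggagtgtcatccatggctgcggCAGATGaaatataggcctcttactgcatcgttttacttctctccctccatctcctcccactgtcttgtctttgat
Tubb3: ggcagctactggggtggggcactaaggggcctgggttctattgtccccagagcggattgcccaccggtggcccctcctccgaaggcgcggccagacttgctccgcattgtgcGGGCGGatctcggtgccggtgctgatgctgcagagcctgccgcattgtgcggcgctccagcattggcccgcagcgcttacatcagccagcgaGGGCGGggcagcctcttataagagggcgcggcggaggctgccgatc
Dclk1: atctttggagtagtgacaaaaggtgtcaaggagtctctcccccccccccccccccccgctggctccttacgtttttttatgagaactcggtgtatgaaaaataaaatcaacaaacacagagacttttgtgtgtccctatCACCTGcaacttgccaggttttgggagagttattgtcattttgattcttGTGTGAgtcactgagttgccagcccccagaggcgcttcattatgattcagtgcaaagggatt
The T-box element AGGTGTGA was found on either strand in 0 of the 8 windows and in 1.28% of all 32851 windows in the table. Its core GTGTGA, contained in it, occurred in 1 of the 8, at −62 of the second *Dclk1* start, and in 14.49% of all windows. The E box CANNTG, bound by proneural factors, was in 4 of the 8 windows and in 72.3% of all. *Stmn3* had it once, at −75, and *Dclk1* at −111 of the start shown. The GC box GGGCGG was in 3 of the 8 windows and in 35.7% of all, with matches at −138 and −46 in *Tubb3*. The core TTCAGCACC of the neuron-restrictive element RE1 was in 0 of the 8 and in 0.371% of all. These are matches of letters and not sites of binding, which these arrays did not measure.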

How the data were processed

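RNA of pooled E14.5 cochlear ducts was hybridised to 4 Agilent 2-colour arrays, 1 mutant and 1 control pool each. The authors scanned them and deposited intensity values from Agilent Feature Extraction 10.7.3.1: the mean signal and local background of each spot in both dyes, not normalized, and processed signals, corrected for background and dye by that software. The authors' series table is a deposited score. Set against the arrays, it ran as the mutant-to-control fold change written with a sign (r between 0.882 and 0.913; the median of each column, taken to log2, was 0). Its normalization is not given in the sources used here. Probe positions (mm9) and symbols are those of the files, whose header names another array design than the methods.

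The 10 genes and all lists were chosen with earlier results of these data known. Groups, sexes and dyes came from the labels. Background was corrected by normexp (limma 3.58.1, R 4.3.3; offset 50, which draws ratios of dim probes towards 0) and log2 ratios by loess within arrays, weighting control spots and flagged outlier spots 0. Unflagged spots of a probe (4 on the array) were averaged. A probe was tested if well above background (at least 50% of its spots) in 4 or more of the 8 channel measurements, which 27963 of 39429 were. Each gene was represented by its brightest tested probe. Ratios were fitted with lmFit and eBayes with a dye term and adjusted by Benjamini-Hochberg over 21042 genes. A gene was called at an adjusted p below 0.05 and a fold of at least 1.5. Levels of single pools are log2 channel intensities after Aquantile normalization. The sex tests used an interaction term and, for levels, separate channels with the array as a random block. Named were the 10 genes with all probes, in each list the 3 largest ratios that passed with the same sign on 4 arrays, called neuronal and glial markers, epithelial markers and the 5 genes nearest to *Stmn3* and *Stmn4*; *Tuba1c*, *Snap25*, *Uchl1*, *Sox10* and the pool levels shown for *Elavl3* and *Celf3* were added after their values were seen. Some markers of the lists are not reported here by name. The fit was tested on simulated data. The number of arrays limits the precision. The p values of the genotype and interaction fits measure the spread of the ratios between arrays, as moderated by limma, and not the spread between unpaired pools. The log ratios that Feature Extraction deposited were not used.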

Additional observations from a re-analysis of the deposited data

Results flagged for a closer look

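In 54 groups of 4 values (control levels, mutant levels and ratios of the 18 tested probes), 2 held a value that stood apart from the other 3 by Dixon's test, and chance flags about 1 in 20 groups. The control pool of array 2 had a log2 intensity of 11.73 for *Stmn2*, below the other control pools at 11.98 to 12.03. The control pool of array 3 had 10.50 on the second *Map2* probe, below the others at 10.78 to 10.81. The brightest *Map2* probe read 12.51 in that pool, within the range of the other control pools. The causes were not tested.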

How the results depend on the processing

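Across 14 other ways of processing, 138 of the 140 mean ratios of the 10 genes stayed within 1 SD of their value and none of those with an adjusted p below 0.05 changed sign; the other 2 were those of *Stmn3* from Agilent's processed signals (−2.58) and from the series values of the authors (−2.60). *Map1b* and *Dcx*, near 0, lay on both sides of it. Agilent's processed signals gave 52 genes called higher and 117 lower in place of 28 and 65, and with the authors' series values 99 genes were lower. Separate channels without the pairing by array gave 0 of the 10 genes called lower, 0 lower and 0 higher at an adjusted p below 0.05 from limma. With the array as a random block they gave 2, 5 and 1, as did the ratios. Without the dye term, genes at an adjusted p below 0.05 from limma were 90 higher and 174 lower, against 476 and 615. With each array left out in turn, *Stmn3* lay between −1.95 and −1.55 and *Stmn4* between −1.92 and −1.56. Both stayed called on each set of arrays, which follows from their selection on these same arrays and lends them no support. Among all genes, 27 to 34 were then called higher and 61 to 69 lower. Without a minimum fold these counts ranged from 122 to 635 higher and from 231 to 643 lower. *Stmn4* had a lower ratio than *Stmn3* with median centring, without array 1 and without array 4. *Mapt* passed under 9 of the 14 settings and not without array 1. Counts within the lists of single genes near the threshold came and went: neuronal markers lower ranged from 5 to 13 and higher from 0 to 4, and the lower genes of the tubulin list and of the severing and depolymerising list from 0 to 2, those of the other microtubule-associated proteins, the kinases and the motors from 0 to 3. A block for slide or scan could not be made because the arrays share both. The causes of these differences were not tested. Dim probes have little room to fall: *Stmn3* was 36 above background in its dimmest pool.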
